A study of Mus musculus with 8 samples.

Results

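The genes described here encode the proteasome, its regulators and its assembly factors, in mouse liver after concanavalin A. They were taken by name, as every gene of the table whose symbol starts with Psma to Psmg followed by a digit. This rule found 51 of 21899 genes. Of these, 46 were placed in 7 classes by textbook role, which were the 20S alpha subunits (7 genes), the constitutive 20S beta subunits (7), the immunoproteasome subunits with the PA28 activator (5), other regulators (3), the 19S ATPases (6), the other 19S subunits (11) and assembly factors (7). Of the other 5 genes, Psma8 and Psmb11 encode subunits restricted to germ cells and to the thymus, and Psmc3ip, Psme3ip1 and Psme2b were described apart, because the first pair is named for proteins that bind a subunit and the last is a further gene named after Psme2.

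RNA sequencing covered 8 liver samples, 4 P2X4R-deficient and 4 wild type, all given concanavalin A (ConA) and taken at 8 h. ConA, a lectin from jack beans, triggers T cells and with them an immune hepatitis, and P2X4R, the product of P2rx4, is a cation channel opened by extracellular ATP. The sample labels call the genotype P2X4R knockdown, whereas the series text writes P2X4R-/-, and strain, sex, age, dose of ConA and the altered part of the gene were not given in the sources used here. The comparison asks which transcripts differ between the genotypes in this hepatitis, and livers without ConA were not analysed here. Nothing in the labels says that the libraries came from separate animals, so the p-values speak to the spread among the sequenced samples, which may be technical.

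The proteasome degrades proteins marked with ubiquitin. Its barrel-shaped 20S core has outer rings of alpha subunits that gate entry and inner rings of beta subunits, of which Psmb5, Psmb6 and Psmb7 carry the proteolytic sites, and the 19S particle that caps the core binds ubiquitin, removes it and unfolds the substrate with a ring of ATPases. Interferon gamma, a cytokine of activated T and NK cells, induces Psmb8, Psmb9 and Psmb10, which take the places of Psmb5, Psmb6 and Psmb7 in newly built cores and form the immunoproteasome, as well as the PA28 activator encoded by Psme1 and Psme2. These forms are known for producing peptides that MHC class I molecules present, and hepatocytes, which hold mostly the constitutive core at rest, make them during inflammation.

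Libraries held 15445285 to 16604190 counted reads. Levels are given in CPM, the TMM-scaled read count relative to library size. P2rx4 was lower in every deficient library, at 24.7 ± 5.33 CPM against 55.9 ± 8.31 CPM in wild type (SD, n = 4 each), a log2 fold change of -1.18 (SE 0.19, edgeR adjusted p = 0.00481). Hepatocyte markers dominated the markers examined, with 6 genes summing to 67463 to 92353 CPM in deficient and 100018 to 112471 CPM in wild-type libraries, while 4 pan-leukocyte genes summed to 26.1 to 35.3 and 15.2 to 39.6 CPM. In such bulk samples, fewer cells of a type and less RNA per cell cannot be told apart.

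Promoter sequences are shown for 4 genes, since the results below turn on Psmb9, on its neighbour Psmb8, and on Psmd9 and Psmd5, the chaperone genes of the 19S base that rose. Each is a RefSeq window of GRCm38.p6 from 250 bases before to 50 bases after an annotated start, read 5′ to 3′ on the gene's strand. Windows were found for 39 of the 46 class members. Capitals mark the match to whichever of 5 searched motifs, looked for on both strands, is rarest among all 32851 windows. That was the CCAAT box in Psmb9, read as ATTGG on the strand shown, TTCNNNGAA in Psmb8, GAAA-NN-GAAA in Psmd9 and TGANNNNGC in Psmd5.
Psmb9, chr17:34187281-34187580, minus strand: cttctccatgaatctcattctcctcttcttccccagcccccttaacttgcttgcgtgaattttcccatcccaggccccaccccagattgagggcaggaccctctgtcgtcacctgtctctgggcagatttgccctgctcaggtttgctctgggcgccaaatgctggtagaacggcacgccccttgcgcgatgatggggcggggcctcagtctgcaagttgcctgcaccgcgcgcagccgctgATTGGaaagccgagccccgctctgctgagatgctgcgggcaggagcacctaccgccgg
Psmb8, chr17:34197945-34198244, plus strand: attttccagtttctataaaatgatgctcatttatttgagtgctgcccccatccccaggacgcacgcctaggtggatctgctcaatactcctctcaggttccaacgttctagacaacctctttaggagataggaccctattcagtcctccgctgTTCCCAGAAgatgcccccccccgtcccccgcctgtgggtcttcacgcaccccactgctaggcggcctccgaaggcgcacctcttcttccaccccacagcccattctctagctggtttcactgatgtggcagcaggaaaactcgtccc
Psmd9, chr5:123227940-123228239, plus strand: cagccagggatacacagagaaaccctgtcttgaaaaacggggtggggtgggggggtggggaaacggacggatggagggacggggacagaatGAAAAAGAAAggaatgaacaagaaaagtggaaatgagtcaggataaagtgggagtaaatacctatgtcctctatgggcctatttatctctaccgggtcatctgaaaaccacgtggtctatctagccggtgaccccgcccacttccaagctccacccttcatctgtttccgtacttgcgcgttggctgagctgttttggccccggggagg
Psmd5, chr2:34870913-34871212, minus strand: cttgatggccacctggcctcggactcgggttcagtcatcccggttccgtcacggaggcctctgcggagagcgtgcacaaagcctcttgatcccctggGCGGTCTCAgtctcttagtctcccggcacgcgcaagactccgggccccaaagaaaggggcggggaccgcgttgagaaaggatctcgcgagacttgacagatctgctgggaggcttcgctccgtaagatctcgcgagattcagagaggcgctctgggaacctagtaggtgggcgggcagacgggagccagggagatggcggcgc
The interferon-stimulated element pattern, GAAA-NN-GAAA, is in 3.44% of all windows and in those of 5 of 39 members (12.8%), of which Psme1 is the only immunoproteasome or PA28 gene. The gamma-activated site pattern TTCNNNGAA is in 8.3% of windows and in 3 members (7.69%), among them Psmb8. The other shares were 50.8% of windows and 22 members (56.4%) for the NF-kB pattern GGG-NNNNN-CC, 37.4% and 13 members (33.3%) for CCAAT, and 41.3% and 22 members (56.4%) for TGANNNNGC, a loose form of the element bound by Nrf1 and Nrf2. The Psmb9 window also holds the NF-kB pattern and TGANNNNGC, and in all 4 windows no match to another motif overlaps the capitals. The Psmb9 window shares 275 of its 300 bases with the window of Tap1, the peptide transporter gene that starts on the other strand (chr17:34187306-34187605). A match describes letters only, and the absence of a match speaks only of this window.

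Transcripts of most proteasome subunits were at similar levels in both genotypes. All 46 class members passed the filter on low counts, and 4 of them (8.7%) were higher in deficient livers and 0 lower at an edgeR adjusted p under 0.05, which were Psmb9, Psmd5, Psmd9 and Psmg3. Over all 11380 genes tested, 19.9% were called, 9.27% as higher and 10.6% as lower, so the share called among proteasome genes was below that of all genes. With library totals in place of TMM, 1731 genes were higher and 843 lower, beside 1055 and 1209. With an unadjusted p under 0.05 the number was 5 (10.9%), the additional gene being Psma3, beside 35.2% of all genes. The median log2 fold change of the 46 was 0.07, beside -0.00 for all genes tested. For 43 of the 46 the 95% interval of the fold change lay within 2-fold in both directions, and for 32 within 1.5-fold. The groups did not overlap in CPM for 6 members, Psma3, Psma6, Psmc2, Psmd7, Psmd5 and Psmd9, beside 24.9% of all genes tested.

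**Figure D1:**
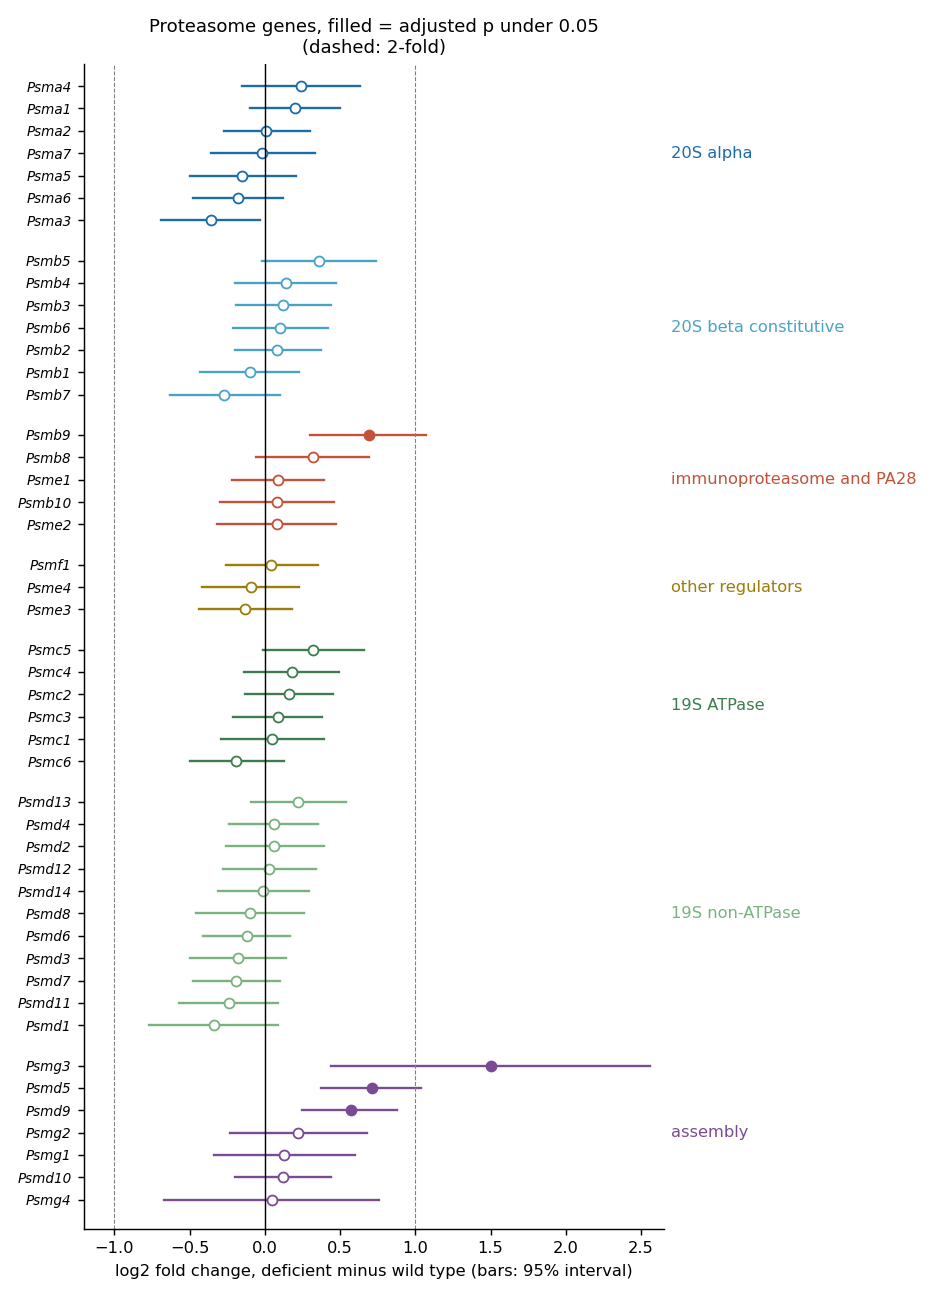
Log2 fold change of each of the 46 proteasome genes (horizontal axis, deficient minus wild type) with its 95% interval, grouped by class. Filled points are the 4 genes with an edgeR adjusted p under 0.05, all to the right of 0, and dashed lines mark 2-fold.

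The summed level of the 46 genes was 3173 to 3452 CPM in deficient and 3203 to 3270 CPM in wild-type libraries, so the groups overlapped. Per length, in FPKM, the mean wild-type level of single members ran from 0.228 for Psmg3 to 85.5 for Psmb10, with a median of 21.2, and the deficient level from 0.722 to 100 with a median of 23.3. Core subunits, which enter each 20S particle in equal number, did not have equal transcript levels, with wild-type FPKM between 22.3 for Psma2 and 70 for Psma6 among the alpha subunits, and between 15.8 for Psmb7 and 75.0 for Psmb4 among the constitutive beta subunits. FPKM is scaled by library totals and not by TMM, which places deficient levels higher than CPM does. Psma2, for example, had means of 24.9 and 22.3 FPKM in deficient and wild type, but 87.2 and 86.3 CPM. FPKM rests on the gene length listed in the table, and how well that length matches the transcripts made in liver was not tested.

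**Figure D2:**
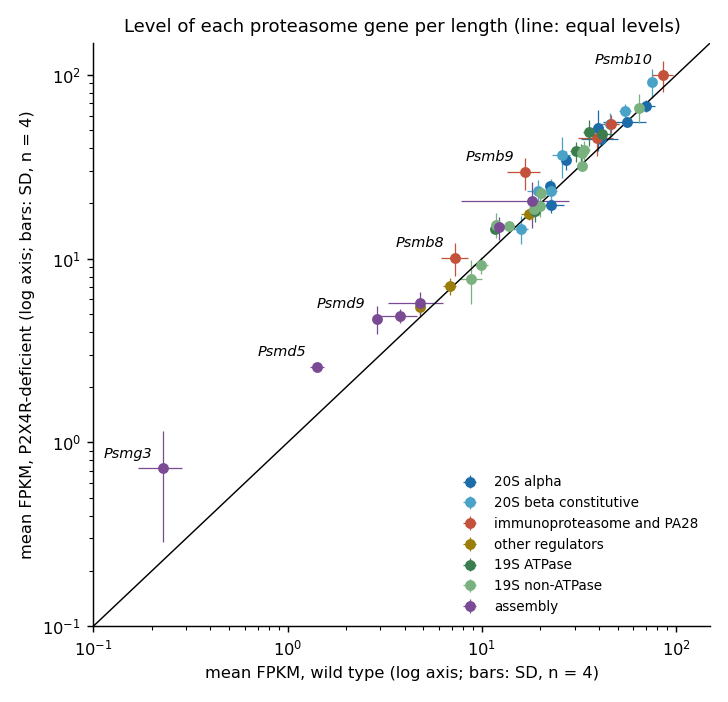
Mean FPKM of each proteasome gene in wild-type (horizontal axis) and deficient livers (vertical axis), both on log axes, coloured by class, with SD bars (n = 4). Most genes sit near the line of equal levels, and Psmb9, Psmd5, Psmd9 and Psmg3 sit above it. FPKM is scaled by library totals, which places deficient levels higher than TMM-scaled CPM does.

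None of the 14 constitutive 20S subunits passed the test in edgeR or DESeq2, and 1, Psma3, had an unadjusted p under 0.05, with log2 fold changes from -0.36 to 0.36. Among the alpha subunits, which form the gate of the core, Psma3 was lowest at -0.36 (SE 0.15, edgeR adjusted p = 0.114), with 61.3 to 77.7 CPM in deficient and 85.1 to 110 CPM in wild-type libraries, and Psma4 highest at 0.24 (SE 0.18). The median of the 7 alpha genes was -0.02, and 0.12 with library totals alone, a scaling that moved the median of all genes from -0.00 to 0.14. Of the 7 constitutive beta genes, Psmb5 was highest at 0.36 and Psmb7 lowest at -0.27, with a median of 0.10.

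The 3 catalytic beta genes of the constitutive core did not move as a set. Psmb5, of the chymotrypsin-like site, was at 39.3, 24.0, 34.6 and 26.7 CPM in deficient 1 to 4 and at 26.4, 25.8, 22.2 and 22.9 CPM in wild type 1 to 4. Psmb6, of the caspase-like site, was at 111, 82.3, 95.3 and 96.0 CPM in deficient and at 98.5, 84.8, 86.4 and 88.8 CPM in wild-type libraries. Psmb7, of the trypsin-like site, was at 35.7, 57.8, 49.9 and 46.5 CPM in deficient and at 51.4, 53.3, 62.1 and 61.5 CPM in wild-type libraries. The groups overlapped for all 3 genes, and deficient 1 held the highest Psmb5 and Psmb6 and the lowest Psmb7. Their log2 fold changes were 0.36 (SE 0.18), 0.10 (SE 0.15) and -0.27 (SE 0.17), with edgeR adjusted p = 0.169, 0.649 and 0.285. Psmb7 overlaps Nek6 on the other strand by 6571 bases, and without stated strand their reads cannot be told apart there.

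Among the immunoproteasome and PA28 genes, Psmb9 rose and the other 4 did not pass the test. Psmb9 (ENSMUSG00000096727; chromosome 17, 34400961 to 34406738 on the minus strand in the table's coordinates) was at 106, 75.7, 111 and 118 CPM in deficient 1 to 4 and at 77.3, 58.6, 55.7 and 62.9 CPM in wild type 1 to 4. Deficient 2 lay just under wild type 1, and the other deficient libraries lay above every wild-type library. The means were 103 ± 18.6 and 63.6 ± 9.59 CPM (SD, n = 4 each), a log2 fold change of 0.69 (SE 0.18, edgeR adjusted p = 0.0208), or 1.61-fold. The call for Psmb9 was lost when deficient 3, deficient 4 or wild type 3 was left out, with log2 fold changes of 0.65, 0.60 and 0.63 and adjusted p = 0.0533, 0.0595 and 0.0707. Without wild type 2 it held only just under the threshold (edgeR adjusted p = 0.05 after rounding). Over all 16 alternatives the adjusted p of Psmb9 ran from 0.00298 to 0.0707.

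Neither Psmb8 nor Psmb10, the other inducible catalytic subunits, passed the test. Psmb8 (ENSMUSG00000024338) was at 36.8, 24.2, 30.7 and 37.3 CPM in deficient and at 28.7, 25.8, 21.4 and 27.6 CPM in wild-type libraries. Psmb10 (ENSMUSG00000031897) was at 191, 133, 144 and 181 CPM in deficient and at 126, 179, 147 and 163 CPM in wild-type libraries. Deficient 2 held the lowest deficient value of both genes, and the groups overlapped. The log2 fold change was 0.32 for Psmb8 (SE 0.17, 95% interval -0.06 to 0.69, edgeR adjusted p = 0.213) and 0.08 for Psmb10 (SE 0.17, 95% interval -0.30 to 0.46, edgeR adjusted p = 0.789).

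Psme1 and Psme2, which encode the alpha and beta subunits of PA28, did not pass the test either. Psme1 (ENSMUSG00000022216) was at 112, 106, 108 and 132 CPM in deficient and at 114, 106, 99.7 and 110 CPM in wild-type libraries. Psme2 (ENSMUSG00000079197) was at 87.3, 64.9, 62.9 and 90.8 CPM in deficient and at 88.0, 75.4, 59.2 and 67.1 CPM in wild-type libraries. The groups overlapped for both genes. The log2 fold changes were 0.09 (SE 0.14, 95% interval -0.22 to 0.39) and 0.08 (SE 0.18, 95% interval -0.32 to 0.47), with edgeR adjusted p = 0.689 and 0.79. Psme2b, on another chromosome, had 19.4 to 28.3 CPM in deficient and 19.8 to 30.6 CPM in wild-type libraries, and how the counting divided reads between it and Psme2 was not given in the sources used here, so both are uncertain.

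**Figure D3:**
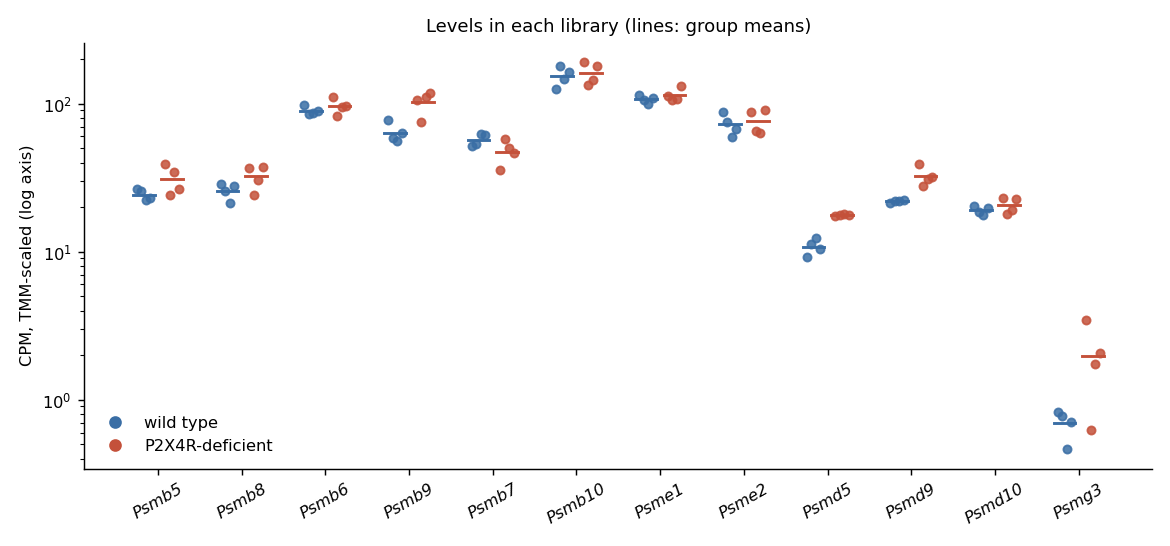
CPM in each library (vertical axis, log scale) of the constitutive and inducible catalytic subunits, PA28 and selected assembly genes, with wild-type libraries in blue, deficient libraries in red and lines at the group means. The groups separate for Psmd5 and Psmd9, nearly separate for Psmb9 and overlap for the other genes.

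Setting each inducible subunit against the constitutive subunit it replaces removes the scaling of the library. The ratio of Psmb9 to Psmb6 in FPKM was 0.486, 0.471, 0.595 and 0.628 in deficient 1 to 4 and 0.402, 0.353, 0.33 and 0.362 in wild type 1 to 4. Every deficient ratio was above every wild-type ratio, with means of 0.545 ± 0.0785 and 0.362 ± 0.0299 (SD, n = 4) and a difference of 0.58 on the log2 scale. An exact two-sided permutation test over the libraries gave p = 0.0286, the smallest that 4 against 4 libraries allow, and p = 0.0857 after adjustment over the 3 ratios. In this design a ratio that alone reached the smallest p could not pass the correction, whatever the size of its difference.

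The ratio of Psmb8 to Psmb5 was 0.281 ± 0.0618 in deficient and 0.283 ± 0.0285 in wild-type libraries (SD, n = 4), a difference of -0.03 on the log2 scale (exact permutation p = 0.857). That of Psmb10 to Psmb7 was 7.24 ± 2.68 and 5.44 ± 0.91 (SD, n = 4), a difference of 0.35 (exact permutation p = 0.257; p = 0.386 adjusted over the 3 ratios). Deficient 1, at 10.8, carried much of that difference, which was 0.14 without it, and the remaining deficient ratios ran from 4.63 to 7.79 beside 4.77 to 6.76 in wild type. Per length, Psmb10 transcripts thus exceeded those of Psmb7 in every library, whereas Psmb8 and Psmb9 stayed below Psmb5 and Psmb6 in every library.

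**Figure D4:**
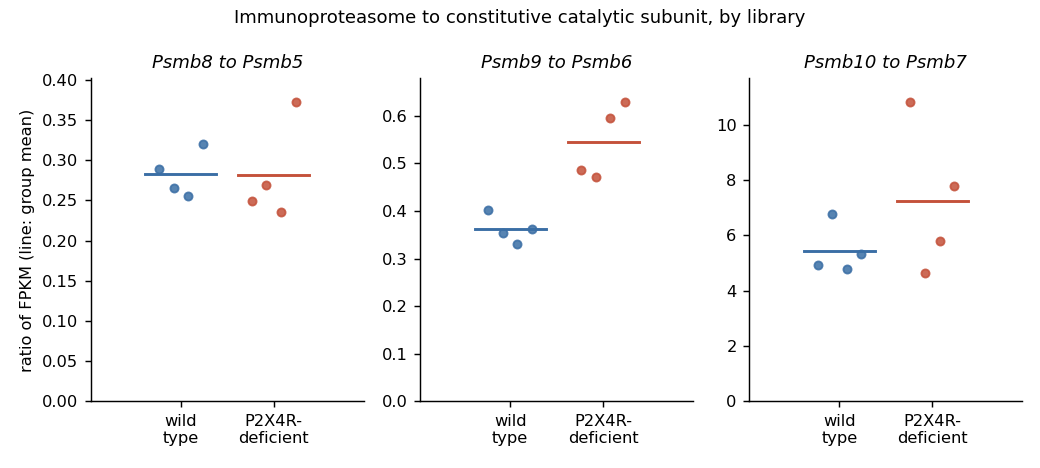
Ratio of FPKM of each immunoproteasome catalytic subunit to the constitutive subunit it replaces (vertical axes, starting at 0), by library, with lines at the group means. The Psmb9 to Psmb6 ratio is 0.471 to 0.628 in deficient and 0.33 to 0.402 in wild-type libraries, and the other ratios overlap between the groups.

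Psmb9 and Psmb8 lie in the MHC region of chromosome 17 beside Tap1 and Tap2, which encode the transporter that carries proteasome products into the endoplasmic reticulum. Of 7 genes of MHC class I presentation listed beside the proteasome, 1 rose and 0 fell (14.3% called, beside 19.9% of all genes). Tap2 rose by 0.54 log2 units (SE 0.14, edgeR adjusted p = 0.024), with 46.0, 41.2, 43.5 and 46.5 CPM in deficient and 25.1, 33.2, 30.5 and 33.5 CPM in wild-type libraries. All deficient libraries lay above all wild-type libraries. The Tap2 call was lost when deficient 4, wild type 1 or wild type 3 was left out, and with the replicate block (adjusted p = 0.057, 0.0518, 0.0697 and 0.0513).

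Tap1, whose promoter window overlaps that of Psmb9, did not pass. It was at 243, 312, 287 and 332 CPM in deficient and at 309, 339, 314 and 336 CPM in wild-type libraries, a log2 fold change of -0.15 (SE 0.15, edgeR adjusted p = 0.518). The ratio of Psmb9 to Tap1 in FPKM, chosen after its values were seen and not tested, was 0.652, 0.363, 0.578 and 0.532 in deficient and 0.374, 0.259, 0.266 and 0.28 in wild-type libraries. Only deficient 2 lay within the wild-type range. In the table's coordinates the genes overlap by 212 bases on opposite strands, where their reads cannot be told apart.

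Of 8 genes examined that regulate proteasome transcription, 2 (25%) passed the edgeR test, both as lower, beside 19.9% of all genes. Irf1, an interferon-induced factor known to activate Psmb9, fell by 1.3 (SE 0.33, edgeR adjusted p = 0.0195), with 185, 421, 190 and 508 CPM in deficient and 905, 534, 853 and 919 CPM in wild-type libraries. Every deficient library lay below every wild-type library. The Irf1 call was lost when either deficient 3 or wild type 3 was left out (adjusted p = 0.0537 and 0.0523).

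Nlrc5, a transactivator of MHC class I genes, fell by 0.74 (SE 0.23, edgeR adjusted p = 0.0448), but passed in 5 of 16 alternatives, and wild type 1 at 96.6 CPM stood above the other wild-type libraries at 48.7 to 54.0 CPM. Without wild type 1 its log2 fold change was -0.46. Irf8, an interferon-induced factor of myeloid cells, had a log2 fold change of -0.68 (edgeR adjusted p = 0.0586) and passed as lower in DESeq2 (adjusted p = 0.0242). The number of regulators called as lower was 3 in DESeq2 and 0 without deficient 3 or wild type 3. Nfe2l1, which encodes Nrf1, the factor that raises proteasome genes when degradation is impaired, was at 75.0 to 88.6 CPM in deficient and 59.3 to 67.6 CPM in wild-type libraries, without overlap. Its log2 fold change of 0.39 (SE 0.13) did not pass (edgeR adjusted p = 0.0611), and did so with DESeq2 (adjusted p = 0.0213), in both limma fits on FPKM (adjusted p = 0.0206 and 0.021) and with library totals alone (adjusted p = 0.0218).

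**Figure D5:**
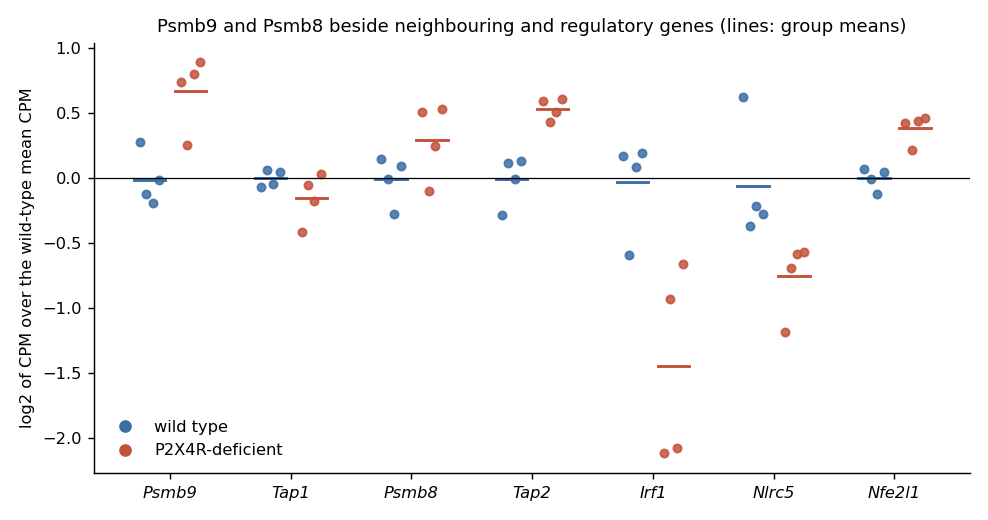
Log2 of each library's CPM over the wild-type mean CPM (vertical axis) for Psmb9, Psmb8, the neighbouring Tap1 and Tap2 and 3 regulators, wild type in blue, deficient in red, lines at the group means of the log2 values. Tap2 and Nfe2l1 lie higher and Irf1 and Nlrc5 lower in deficient libraries, without overlap. Psmb9 lies higher except in deficient 2, just under wild type 1, and Psmb8 and Tap1 overlap.

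Leukocytes express immunoproteasome genes at high levels, so their markers are given beside Psmb9. Over all genes tested, 9.27% were called as higher and 10.6% as lower. Of 4 pan-leukocyte genes 1 rose and 0 fell; Coro1a, an actin regulator of leukocytes, was at 1.09 log2 units (SE 0.36, edgeR adjusted p = 0.05 after rounding, just under the threshold) and passed in 8 of 16 alternatives. Of 8 T and NK cell genes 4 were tested, 0 rose and 1, Gzma, fell, and the list summed to 7.83 to 13 CPM in deficient and 9.5 to 15.9 CPM in wild-type libraries. Macrophage genes summed to 21.3 to 30.2 and 30.5 to 96.8 CPM, with 4 of 5 tested lower (Adgre1, Clec4f, Cd5l and Csf1r) in edgeR. The other tested gene of that list, Ly6c2, had a positive log2 fold change of 0.80 (SE 0.42, edgeR adjusted p = 0.197). Neutrophil genes summed to 74.0 to 145 and 21.4 to 86.6 CPM, with 1 of 5 higher (Cxcr2). All 5 had positive estimates, from 0.67 to 1.53, beside 5679 of the 11380 genes tested, and the groups overlapped for each. The number of neutrophil genes called as higher was 0 to 3 with a library left out and 0 to 1 in the other alternatives. B cell genes summed to 0.664 to 2.24 and 0.264 to 4.81 CPM, and 4 endothelial genes to 27.6 to 43.1 and 23.0 to 46.4 CPM, with 0 higher and 1, Clec4g, lower. The macrophage count was 0 to 4 with a library left out and 0 to 4 in the other alternatives. Without wild type 1, which held the highest level of all 4 genes, it was 1, and the log2 fold change moved from -1.34 to -0.74 for Cd5l, from -1.03 to -0.60 for Clec4f and from -1.12 to -0.70 for Csf1r. Gzma passed in 5, Cxcr2 in 10 and Clec4g in 14 of 16 alternatives. All 6 hepatocyte genes had negative estimates, and the groups did not overlap for 4 of them, beside 24.9% of all genes tested. Of the 6, 1, Cps1, passed in edgeR (16.7%, beside 19.9% of all genes) and 4 in DESeq2 (beside 23.1% of all genes). The Cps1 call was lost when deficient 1, deficient 3 or wild type 3 was left out, and then 0 hepatocyte genes were called. The part of leukocytes in the Psmb9 difference was not tested.

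None of the 17 subunits of the 19S particle passed the test in edgeR or DESeq2, and 0 had an unadjusted p under 0.05. The 6 ATPases, which unfold substrates, had log2 fold changes from -0.19 for Psmc6 to 0.32 for Psmc5, with a median of 0.12. Psmc5 was at 53.0 to 74.6 CPM in deficient and 44.9 to 56.4 CPM in wild-type libraries (SE 0.15, edgeR adjusted p = 0.158), and it was past the threshold only with library totals alone and in the limma fits on FPKM (adjusted p = 0.045, 0.0471 and 0.048). The 11 non-ATPase subunits, which include the ubiquitin receptor Psmd4, the scaffold genes Psmd1 and Psmd2 and the deubiquitinase Psmd14, ran from -0.34 for Psmd1 to 0.22 for Psmd13. Their median of -0.10 was 0.04 with library totals alone and 0.01 without deficient 1. The 95% intervals of all 17 lay within 2-fold, and those of 15 within 1.5-fold.

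The regulators outside PA28 alpha and beta were near equal. Psme3, the nuclear activator PA28 gamma, Psme4, the activator PA200, and Psmf1, the inhibitor PI31, had log2 fold changes of -0.13, -0.09 and 0.04, with 0 of 3 past the threshold in edgeR, 0 at an unadjusted p under 0.05 and 0 in DESeq2. The estimate for Psme3 was 0.02 with library totals alone and in the limma fits.

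Assembly factors held 3 of the 4 class members that rose, or 42.9% of the 7, beside 9.27% of all genes called as higher. All 7 had positive estimates in edgeR with all libraries, beside 5679 of the 11380 genes tested. The median log2 fold change of the 7 was 0.22. The median was 0.18 to 0.44 with a library left out, the highest without wild type 1, and the estimate for Psmg4 was then -0.17 to 0.44. Psmd5 (ENSMUSG00000026869; chromosome 2, 34739746 to 34764980 on the minus strand), a chaperone that holds the 19S base during assembly, was at 17.5, 17.8, 17.9 and 17.6 CPM in deficient 1 to 4 and at 9.24, 11.3, 12.3 and 10.5 CPM in wild type 1 to 4. The deficient libraries were nearly equal, and all lay above the wild-type libraries. The means of 17.7 ± 0.184 and 10.9 ± 1.31 CPM (SD, n = 4) gave a log2 fold change of 0.71 (SE 0.15, edgeR adjusted p = 0.0115), or 1.63-fold. Psmd5 passed in 16 of 16 alternatives, with log2 fold changes of 0.56 to 0.86. It overlaps Cutal on the other strand by 573 bases, and Cutal had a log2 fold change of -0.06 (SE 0.27).

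Psmd9 (ENSMUSG00000029440), another chaperone of the 19S base, rose as well. It was at 39.1, 27.7, 31.0 and 31.7 CPM in deficient and at 21.2, 22.1, 21.9 and 22.3 CPM in wild-type libraries. The wild-type libraries were nearly equal, and each deficient library lay above them. The means of 32.4 ± 4.81 and 21.9 ± 0.477 CPM (SD, n = 4) gave a log2 fold change of 0.57 (SE 0.15, edgeR adjusted p = 0.0205), and the call was lost only without wild type 3 (adjusted p = 0.0604).

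Psmd9 is also the member nearest to P2rx4. In the table's coordinates it lies on chromosome 5 at 123307476 to 123388194, 0.44 Mb from P2rx4, while the other members on that chromosome, Psmg3 and Psmc2, lie 16.94 and 100.84 Mb from that gene. Within 1 Mb of P2rx4, 9 of 31 tested genes other than P2rx4 were higher and 3 lower (38.7% called, beside 19.9% of all genes). Psmd9 itself is counted among the higher genes, and Hpd, described below, among the lower. Genotype and the alleles that flank the altered gene cannot be told apart here. The Psmd9 interval also contains Hpd, a gene of tyrosine breakdown on the other strand, at 675 to 1102 CPM in deficient and 1167 to 1687 CPM in wild-type libraries. Hpd fell by 0.63 log2 units (SE 0.20, edgeR adjusted p = 0.0432), the opposite direction, and whether its reads enter the Psmd9 count was not tested.

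Psmg3, a chaperone of the alpha ring, rose by 1.5 log2 units (SE 0.49, edgeR adjusted p = 0.0494) at the lowest level of all class members. The libraries held 57, 10, 30 and 36 reads in deficient and 13, 11, 7 and 11 reads in wild type, or 3.44, 0.621, 1.74 and 2.07 CPM against 0.823, 0.773, 0.462 and 0.705 CPM. Deficient 2 lay inside the wild-type range, and deficient 1 was the highest. Psmg3 passed in 5 of the 13 alternatives that tested it, and without deficient 1 its log2 fold change was 1.09 (adjusted p = 0.154). The gene overlaps Gm26938, which had 0 CPM in every library, by 2816 bases on the same strand. How the counting divided reads there was not given in the sources used here, so the level and the rise of Psmg3 are uncertain.

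The remaining assembly genes did not pass. Psmd10, the oncoprotein gankyrin and also a chaperone of the 19S base, was at 17.9 to 23.1 CPM in deficient and 17.6 to 20.2 CPM in wild-type libraries, a log2 fold change of 0.12 (SE 0.15, 95% interval -0.20 to 0.44, edgeR adjusted p = 0.586). Psmg1 and Psmg2, which act as a pair on the alpha ring, had log2 fold changes of 0.13 and 0.22, and Psmg4, the partner of Psmg3, 0.05 (SE 0.33) with a wide 95% interval of -0.67 to 0.76. The difference between Psmd10 and its fellow chaperones Psmd5 and Psmd9 was not tested.

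Of 16 proteasome factors examined without a Psm name, 15 were matched and tested, and 1 passed the test (6.67%, beside 19.9% of all genes). Akirin2, which helps bring proteasomes into the nucleus, rose by 0.61 log2 units (SE 0.18, edgeR adjusted p = 0.0332), with 16.4 to 26.4 CPM in deficient and 13.4 to 16.9 CPM in wild-type libraries; it passed in 10 of 16 alternatives. Pomp, the maturation factor of the 20S core, was at 72.4 to 124 and 77.3 to 93.3 CPM and did not pass (edgeR adjusted p = 0.644).

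Of 9 ubiquitin, ubiquitin-activating and VCP genes, 0 passed in edgeR and 0 in DESeq2, and 1, Uba6, had an unadjusted p under 0.05, with 0 to 3 called as higher in the alternatives. Ubb, a polyubiquitin gene, was at 648 to 790 CPM in deficient and 526 to 613 CPM in wild-type libraries, a log2 fold change of 0.28 (SE 0.14, edgeR adjusted p = 0.185).

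The genes set apart by role gave 1 call. Psme3ip1, whose product binds PA28 gamma, rose by 0.93 log2 units (SE 0.25, edgeR adjusted p = 0.0233), with 45.0, 22.0, 23.9 and 30.4 CPM in deficient and 11.3, 18.6, 14.6 and 19.2 CPM in wild-type libraries. All deficient libraries were above all wild-type libraries, and the call was lost without deficient 1, wild type 1 or wild type 3 and with the replicate block (adjusted p = 0.0547, 0.0534, 0.0694 and 0.0529). Psme3ip1 overlaps Rspry1 by 61 bases on the other strand, and Rspry1 also rose, by 0.74 (SE 0.21, edgeR adjusted p = 0.0309). Psma8, of the germ cell proteasome, had 0 to 7 reads per library, Psmb11, of the thymus proteasome, 0 reads in each library, which allows up to 0.172 to 0.211 CPM (3 reads in a library), and Psmc3ip 1 to 12 reads, and these 3 genes did not pass the filter on low counts.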

How the data were processed

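RNA was taken from liver 8 h after ConA in 4 deficient and 4 wild-type samples, and polyadenylated RNA was selected and sequenced, per the labels' protocols. The submitters' processing notes name cutadapt and HISAT2 2.0.5. Raw read counts and FPKM per gene were deposited in a single table, per the file headers, and FPKM recomputed from counts and lengths differed by at most 7e-05%. No source used here gives the counting program, its use of strand or the genome build. Starts equalled those of GENCODE M21 (GRCm38) for 2.36% of shared identifiers, so gene coordinates are the table's own and promoter windows carry RefSeq's GRCm38.p6 coordinates.

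Counts were tested with edgeR 4.0.16 (R 4.3.3; quasi-likelihood, TMM, default expression filter, 11380 genes) and adjusted by Benjamini-Hochberg over all genes tested, with a threshold of 0.05. Intervals are 95% t intervals per gene. Alternatives used DESeq2 1.42.0, limma 3.58.1 on log2(FPKM + 1) or log2(FPKM + 0.1), other filters and scalings, a block for the title number, and leaving out libraries singly. The fit was tested on simulated data. Read intervals and floors cover counting error only. The members, lists and tests were chosen with earlier results of these data known. Genes named in full were the immunoproteasome, PA28 and constitutive catalytic genes and every member past the threshold, with the highest and lowest of each class and all context genes past the threshold, of which those of the marker lists are only named. The genes Tap1, Nfe2l1, Irf8, Hpd, Rspry1, Pomp, Ubb, Uba6 and Psmd10, the values of Ly6c2 and the overlaps between genes were added after values were seen. From these lists 2 genes are not reported here. A symbol with several identifiers stood for the one with most reads.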

Additional observations from a re-analysis of the deposited data

Results flagged for a closer look

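In 5 of 96 groups of 4 libraries, over the 48 tested genes, 1 library stood far from the others, where chance alone gives about 1 in 20. Wild type 1 was the high library for 3 alpha subunits, with 101 CPM of Psma5 beside 67.2 to 71.7 in the other wild-type libraries, 101 CPM of Psma6 beside 86.1 to 87.8, and 166 CPM of Psma7 beside 116 to 124. It was the low library for the ATPase gene Psmc1, with 66.6 CPM beside 89.9 to 93.6. Deficient 1 held 115 CPM of Psma7 beside 135 to 138 in the other deficient libraries.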

How the results depend on the processing

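Among the 7 proteasome classes, 0 genes were called as lower in edgeR or in any of the 16 alternatives. The number called as higher was 4 in edgeR, 3 to 5 in the 8 alternatives with all libraries and 1 to 4 with a library left out. It was 2 without deficient 3 or deficient 4 and 1, Psmd5, without wild type 3. For assembly factors the range with a library left out was 1 to 3, for immunoproteasome and PA28 genes 0 to 1, and in 19S ATPases 1 gene (Psmc5) passed with library totals alone and in both limma fits. Over all genes, 1055 rose and 1209 fell. With a library left out these were 454 to 1079 and 528 to 1309, lowest without wild type 3. With library totals alone 1731 rose and 843 fell, in limma on log2(FPKM + 1) 1602 and 813, and on log2(FPKM + 0.1) 1594 and 814. Library totals alone moved the median of all genes to 0.14. Class medians then were 0.12 for 20S alpha, 0.25 for 20S beta, 0.05 for other regulators, 0.27 for 19S ATPases and 0.22 for all classes, and in the limma fits 0.14, 0.24, 0.26 to 0.27 and 0.21 to 0.22 (other regulators moved by less than the replicate spread). The 20S beta median was 0.03 to 0.16 with a library left out. Psme3 turned from -0.13 to 0.02 with library totals alone and in limma. With a library left out, estimates that did not pass changed sign for Psmb10 (-0.02 to 0.17), Psme1 (-0.00 to 0.12), Psme2 (-0.03 to 0.17), Psmf1 (-0.06 to 0.09) and Psmg4 (-0.17 to 0.44). Equal title numbers did not pair the libraries, with correlations of deviations of 0.13, -0.11, 0.07 and -0.11. With the replicate block, 761 genes rose and 1007 fell, and 3 class members passed. The causes of these shifts were not tested. At these depths Psmg3, with 7 to 57 reads a library, has the widest interval.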

Other observations

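The spread of proteasome genes within a genotype moved with gene length in some libraries. For each library, the deviation of each gene from its group's mean log2 CPM was set against the listed length over the 46 class members. Spearman's rho was -0.47 in deficient 1 and 0.44 in deficient 2, 0.12 in deficient 3 and -0.02 in deficient 4. In wild type 1 to 4 it was -0.31, 0.03, 0.36 and 0.21. Over all 11380 genes tested the values were -0.19, 0.20, 0.12 and -0.13 in deficient and -0.07, -0.08, 0.10 and 0.09 in wild-type libraries. In deficient 1, 30 of 46 members were above the group mean, and in deficient 2, 18 of 46. These correlations run across genes, which share libraries and are not independent, and deviations within a group sum to zero, so a high library forces others low. Deficient 1 was also the library with the highest Psmb5, Psmd9 and Psmg3 and the lowest Psmb7. Deficient 2 had the lowest deficient values of Psmb9, Psmb8, Psmb10 and Psmg3. Listed lengths were 899 bases for Psmb5, 7248 for Psmd9, 2893 for Psmg3 and 3421 for Psmb7. They were 3660 for Psmb9, 3381 for Psmb8 and 1705 for Psmb10. Not all of these values ran with the trend, since Psmd9, a long gene, was highest in deficient 1, where rho was negative. The part of length in these values was not tested.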
